A study of Mus musculus with 278 samples.

Results

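Spermatogonia that carried much Stra8 transcript were compared with spermatogonia of the same cell preparations that carried little or none. In each preparation the cells were ranked by Stra8 and both groups were chosen by that value alone, the top tercile (Stra8-high) to be set against the bottom tercile (Stra8-low). This gave 91 Stra8-high and 91 Stra8-low cells of 278 in all, with 96 cells in the middle tercile. Because Stra8 chose the cells, it was left out of every test and its values below are a description.

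All cells were ID4-EGFP+ spermatogonia, germ cells in which a green fluorescent reporter marks expression of Id4, isolated by flow sorting from testes of untreated mice at postnatal day 6. Testes of more than 1 pup were pooled and digested with trypsin, single cells were captured on a microfluidic chip, and EGFP brightness was read by imaging, which placed each cell in a quartile from Q1 (bright) to Q4 (dim). The series' design text names Q4 as the dim quartile and the extraction protocol names Q2; Q4 was taken as dim here, and what is said of bright and dim cells rests on that reading. The reporter is carried by Stra8-high and Stra8-low cells alike, so spermatogonia without reporter were not part of either group. The labels name neither the mouse strain nor the promoter of the reporter. The 5 preparations held 26, 62, 37, 75 and 78 cells and gave 8, 20, 12, 25 and 26 cells to each of the high and low terciles. Expression is in FPKM, which scales fragments to transcript length and to the fragments mapped in the cell. The labels do not say whether the preparations came from separate litters, so the p-values measure the spread between these preparations.

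Stra8 encodes a nuclear protein that germ cells make when retinoic acid reaches them. Retinoic acid is made from vitamin A by the retinol and aldehyde dehydrogenases, is bound in the cell by retinoid-binding proteins and acts through nuclear retinoic acid receptors at the promoters of its target genes. In the postnatal testis it drives undifferentiated spermatogonia, which are kept by GDNF and FGF signals, to become KIT-positive differentiating spermatogonia, and it later acts again at the entry into meiosis. Stra8 is thus made both at the onset of differentiation and before meiosis.

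The promoter of Stra8 is shown because it is the part of the gene on which retinoic acid receptors act. That of Sohlh1 is shown because it alone held the same motif, among the promoters found for 11 genes higher in Stra8-high cells. The sequences are the 250 bases before the RefSeq start site on GRCm38.p6, at chr6:34920698-34920947 on the plus strand for Stra8 and chr2:25847249-25847498 on the minus strand for Sohlh1. Capitals mark AGGTCA, the half-site that retinoic acid receptors and related nuclear receptors bind, searched on both strands.
Stra8: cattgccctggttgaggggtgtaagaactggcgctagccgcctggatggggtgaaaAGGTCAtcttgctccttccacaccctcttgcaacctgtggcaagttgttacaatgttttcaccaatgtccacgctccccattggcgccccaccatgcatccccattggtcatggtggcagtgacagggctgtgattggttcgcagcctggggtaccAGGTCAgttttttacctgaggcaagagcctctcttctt
Sohlh1: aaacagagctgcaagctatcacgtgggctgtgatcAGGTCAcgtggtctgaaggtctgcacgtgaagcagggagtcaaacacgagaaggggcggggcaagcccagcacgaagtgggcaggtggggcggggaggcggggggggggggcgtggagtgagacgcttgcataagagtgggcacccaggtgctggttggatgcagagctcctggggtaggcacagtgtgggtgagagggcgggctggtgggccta
The Stra8 window held 2 such half-sites, which began at positions -194 and -38 from the start site, and the Sohlh1 window held 1, at -215. The motif CCTCAG, the core of the sequence that STRA8 protein binds, was found on the opposite strand of the Stra8 window at -23. AGGTCA was found in 14% of all 32851 RefSeq promoters of this length. The other shares were counted per gene, with a match in any promoter of the gene. By gene, AGGTCA was found in 12.4% of the tested genes with a promoter. It was found in 1 of 11 such genes higher in Stra8-high cells and in 4 of 9 lower there (Capg, Cst3, Ell3 and Sdc4). CCTCAG was found in 22.3% of all promoters and, by gene, in 25.8% of those tested, 3 of 11 and 3 of 9. A match of letters is a description and not a binding site.

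**Figure D1:**
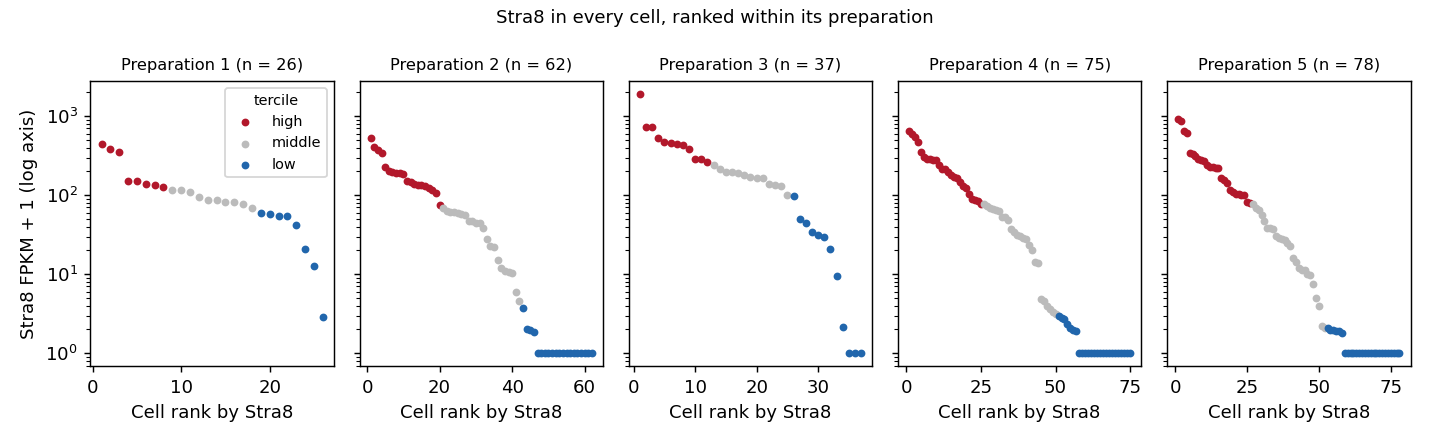
Stra8 FPKM + 1 (log axis) of every cell against its rank within its preparation, coloured by tercile. The curves fall without a gap at most borders between terciles, and the cells at 0 all lie in the low tercile.

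The tercile borders cut through a continuous range of Stra8. In Stra8-high cells Stra8 averaged 309 ± 152 FPKM, in the middle tercile 70.95 ± 60.98 and in Stra8-low cells 12.8 ± 17.6 (SD of 5 preparation means). The high tercile began at 125, 74.3, 264, 77.4 and 78.97 FPKM in preparations 1 to 5, and the highest cells of the middle tercile stood just below, at 115, 67, 237, 77.2 and 76.7 FPKM. At the other border the lowest cells of the middle tercile had 67.8, 3.54, 98.9, 2.12 and 1.10 FPKM, and the highest cells of the low tercile 59.2, 2.73, 96.4, 1.97 and 1.09 FPKM. Low therefore meant different things in different preparations. Of the Stra8-low cells, 57 were listed at 0, which can be a missed molecule, but preparation 1 had no such cell and preparation 3 had 3. Ties did not alter the membership of either group.

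EGFP brightness was measured by imaging and was not used to form the groups. The Stra8-high cells comprised 22 cells of Q1, 25 of Q2, 23 of Q3 and 21 of Q4, and the Stra8-low cells 24, 23, 25 and 19. The mean quartile number was 2.44 ± 0.31 in Stra8-high cells and 2.43 ± 0.28 in Stra8-low cells, a difference of 0.01 ± 0.57 (SD, n = 5; two-sided exact permutation test, p = 0.9375). The preparations did not share a direction, with differences of 0.50, 0.15, -0.92, -0.12 and 0.42. The widest of these, in preparation 3, came from a high tercile with 6 cells of Q1 and 0 of Q4 and a low tercile with 0 of Q1 and 3 of Q4. Seen the other way, mean Stra8 was 127 ± 110 FPKM in Q1 cells, 106 ± 20.9 FPKM in Q2 cells, 141 ± 125 FPKM in Q3 cells and 131 ± 21.9 FPKM in Q4 cells (SD, n = 5).

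**Figure D2:**
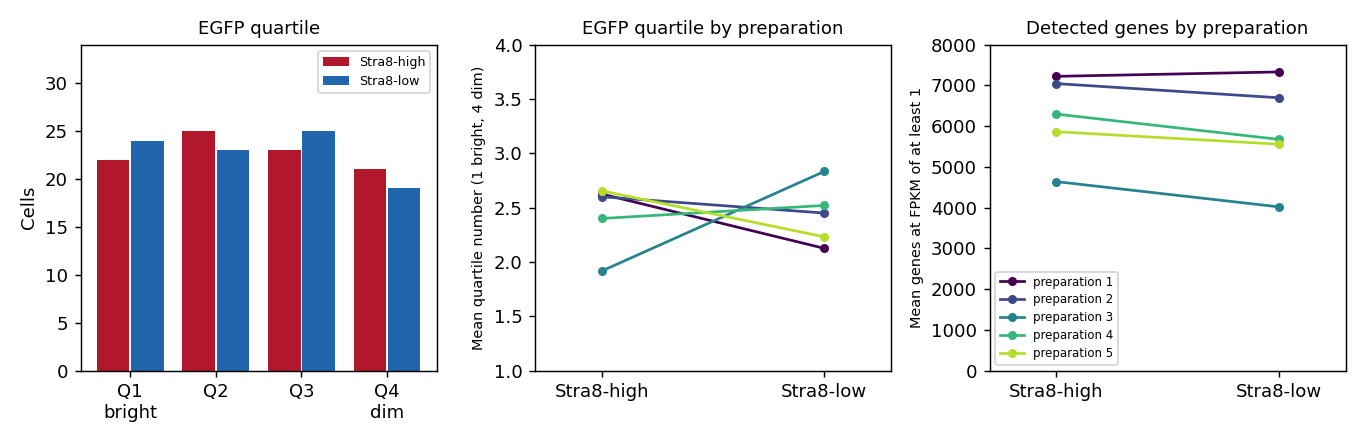
Left, cells of each EGFP quartile (Q1 bright to Q4 dim) among Stra8-high and Stra8-low cells; middle, mean quartile number, and right, mean genes at FPKM of at least 1, in the 2 groups, 1 line per preparation. The quartile lines differ in direction, and detected genes were higher in Stra8-high cells in 4 of 5 preparations.

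Stra8-high cells had somewhat broader transcriptomes, which bears on every comparison below because all other genes were read from the same libraries as Stra8. Detected genes, at FPKM of at least 1, numbered 6212 ± 1039 in Stra8-high and 5855 ± 1263 in Stra8-low cells, a difference of 357 ± 299 (SD, n = 5). The difference was positive in 4 of 5 preparations and -109 in preparation 1; an exact permutation over preparations gave p = 0.125 (two-sided), where 5 preparations allow no less than 0.063. Fragments per cell, estimated from the smallest steps between low values, had a median of 620693 over all cells (198890 to 1910725) and a log2 ratio of Stra8-high to Stra8-low of -0.12 ± 0.16 (SD, n = 5; exact permutation test, p = 0.1875). The 50 most abundant genes of a cell took 16.2 ± 0.95% of its FPKM in Stra8-high and 17.0 ± 1.05% in Stra8-low cells, lower in every preparation (exact permutation test, p = 0.063). Both groups were germ cells by their markers. The summed FPKM of the germ cell markers was 4623 to 5336 in the Stra8-high means and 4715 to 5030 in the Stra8-low means. Of the Sertoli markers Amh, Fshr and Inhba, of the Leydig markers 6 of 8, including Cyp11a1 and Insl3, and of the macrophage and blood markers 5 of 10 were listed at 0 in every cell. The summed Sertoli markers, led by the broadly expressed Ctsl, were 115 to 213 FPKM in Stra8-high and 132 to 213 FPKM in Stra8-low means. In Stra8-high means the summed Leydig markers stood at 1.00 to 4.15 FPKM, peritubular myoid markers at 0.00 to 13.3, endothelial markers at 9.01 to 42.8 and macrophage and blood markers at 0.00 to 11.2 FPKM. In Stra8-low means the same sums were 0.00 to 8.75, 1.37 to 6.82, 2.26 to 56.7 and 0.07 to 13.7 FPKM.

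Stra8-high cells had more transcript of the differentiation receptor Kit, of the meiotic cohesin subunit Rec8, of the germ cell transcription factor Sohlh1 and of the LIM-domain gene Crip2. They had less of the GDNF and FGF response genes Egr2, Dusp6 and Lhx1, of the heparan sulfate proteoglycan Sdc4 and of the polyamine-catabolic enzyme Sat1. In all, 17 of 10451 genes were higher (0.163% of those tested) and 11 lower (0.105%) in Stra8-high cells, by limma with Benjamini-Hochberg adjustment and a threshold of 0.05. At an unadjusted p under 0.05 there were 1058 higher (10.1%) and 240 lower (2.3%), and all genes together had a median difference of 0.13. All differences below are Stra8-high minus Stra8-low in the mean of log2(FPKM + 1), which understates changes of low genes, with their standard error, and adjusted p-values are limma's. The balance of the calls changed with corrections for detected genes. When each gene was taken as its residual on detected genes within a preparation, 3 genes were higher and 13 lower, and the median of all genes moved to 0.01. With detected genes entered as covariate of the means, 1 was higher, Rec8, and 0 were lower (255 lower at an unadjusted p under 0.05). Centring on the EGFP quartile gave 3 higher and 3 lower.

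Kit encodes the receptor for stem cell factor and is the textbook marker of differentiating spermatogonia. It averaged 41.9, 42.5, 31.2, 33.6 and 38.2 FPKM in the Stra8-high cells of preparations 1 to 5, against 8.18, 7.55, 12.8, 11.4 and 9.81 FPKM in their Stra8-low cells. Every Stra8-high mean thus exceeded every Stra8-low mean, as for 0.622% of all genes tested, while the reverse held for 0.354%. In mean log2(FPKM + 1), 7.59% of all genes were higher and 2.34% lower in Stra8-high cells in 5 of 5 preparations, and of the 28 called genes 26 had 1 sign in all 5. The difference was 2.23 ± 0.34 (limma adjusted p = 0.0055; 1.74 to 2.71 within the 5 preparations). A mean of 76.8% of Stra8-high and 43.02% of Stra8-low cells had Kit at FPKM of at least 1. In the middle tercile Kit averaged 19.8 ± 8.47 FPKM (SD, n = 5), between the 2 groups. The call was kept when genes were taken as residuals on detected genes (1.92, adjusted p = 0.0103) and lost with detected genes entered as covariate (1.65 ± 0.51, limma adjusted p = 0.74).

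Rec8 encodes a cohesin subunit made in germ cells that approach meiosis, where it holds sister chromatids together, and retinoic acid is known to induce it. Its means were 23.7, 12.1, 22.8, 12.7 and 11.4 FPKM in Stra8-high cells, against 1.34, 0.17, 1.49, 2.95 and 0.69 FPKM in Stra8-low cells. The lowest Stra8-high mean was above the highest Stra8-low mean, and 47.8% of Stra8-high but 6.74% of Stra8-low cells reached FPKM of at least 1. The difference was 1.68 ± 0.27 (limma adjusted p = 0.0069), and it was called with each of the 2 corrections for detected genes, at 1.45 for the residuals (adjusted p = 0.034) and 2.57 with the covariate (adjusted p = 0.0021).

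**Figure D3:**
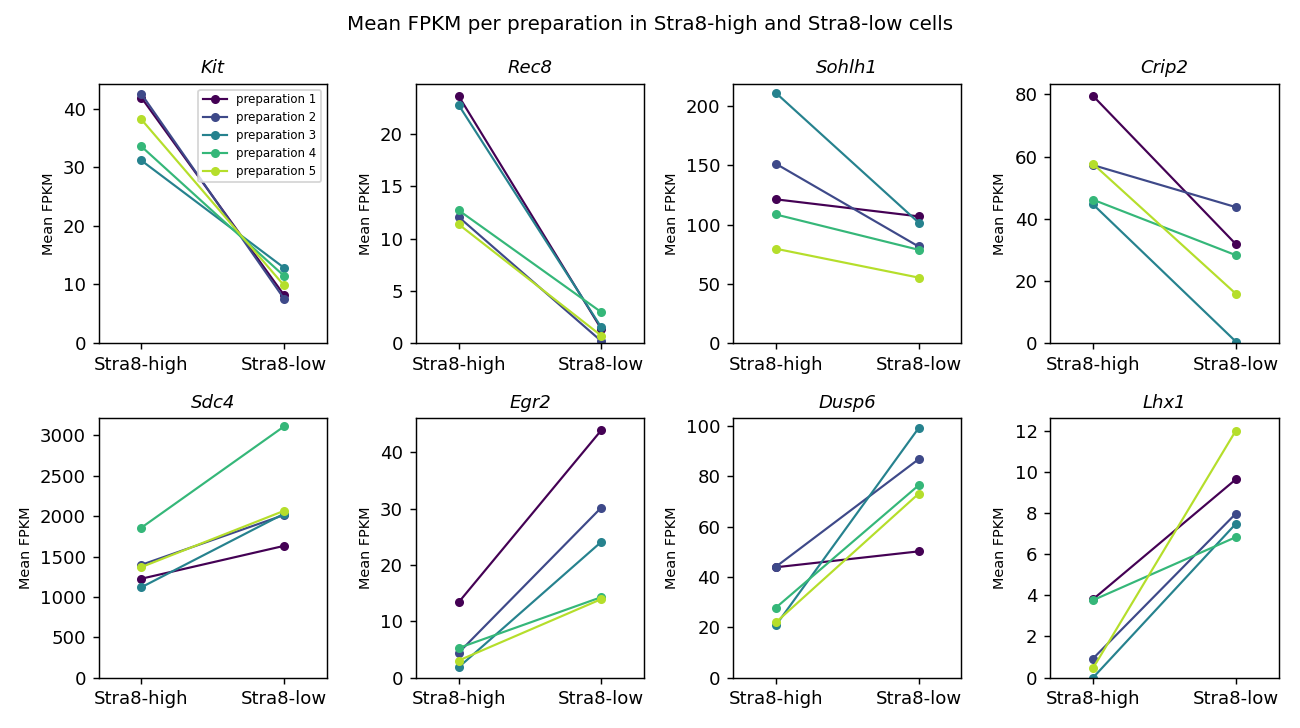
Mean FPKM of 8 called genes in Stra8-high and Stra8-low cells, 1 line per preparation. Kit, Rec8, Sohlh1 and Crip2 were higher and Sdc4, Egr2, Dusp6 and Lhx1 lower in Stra8-high cells in 5 of 5 preparations; the groups do not overlap for Kit, Rec8, Crip2, Egr2, Dusp6 and Lhx1.

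Sohlh1 encodes a basic helix-loop-helix factor required for spermatogonial differentiation. It averaged 121, 152, 211, 109 and 79.6 FPKM in Stra8-high cells, against 107, 81.6, 102, 78.8 and 55.2 FPKM in Stra8-low cells. It was higher in all 5 preparations although the groups overlapped across preparations, with a difference of 1.40 ± 0.27 (limma adjusted p = 0.030). The middle tercile lay close to the high tercile, at 123 ± 29.5 FPKM (SD, n = 5).

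The gene lists below were chosen with earlier results of these data known, so their shares beside all genes are a description. The retinoid pathway was represented by 20 tested genes of 33 listed. Of these 2 were called higher, Rec8 among them, 0 were called lower, 7 had an unadjusted p under 0.05 on the higher side (35%, against 10.1% of all genes) and 1 on the lower side. The median difference of the 20 was 0.14 in the main fit, close to that of all genes. It was 0.09 for residuals on detected genes and 0.42 with detected genes as covariate, where all genes had a median of 0.01 in each. Among the carriers and enzymes described here the differences did not pass: 0.86 ± 0.28 for Crabp1, a cytosolic retinoic acid-binding protein (limma adjusted p = 0.21), 0.77 ± 0.26 for Fabp5, which also carries retinoic acid (0.22), 0.82 ± 0.22 for the retinol dehydrogenase Rdh11 (0.14) and 0.79 ± 0.23 for the retinoic acid-making Aldh1a2 (0.17). Aldh1a2 was higher in 5 of 5 preparations in mean log2(FPKM + 1); in mean FPKM it was lower in preparation 4 (2.31 FPKM in Stra8-high and 2.74 FPKM in Stra8-low cells), with a range of 2.31 to 19.8 FPKM in Stra8-high and 2.74 to 9.46 FPKM in Stra8-low means. Cyp26a1, which degrades retinoic acid, averaged 3.14 ± 1.75 FPKM in Stra8-high and 0.35 ± 0.69 in Stra8-low cells (SD, n = 5), with a difference of 0.47 ± 0.16 (limma adjusted p = 0.23). The receptor Rara differed by 0.14 ± 0.23 (limma adjusted p = 0.84) and Rarg by 0.09.

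Among 16 tested genes of differentiating spermatogonia, of 20 listed, 2 were called higher (Kit and Sohlh1) and 0 lower, and 7 (43.8%) had an unadjusted p under 0.05 on the higher side. The median of the 16 was 0.41, with 13 above 0, against 67.5% of all genes above 0, and it was -0.02 when the log was taken of the mean FPKM. Near the threshold stood Dnmt3b, a de novo DNA methyltransferase of differentiating spermatogonia, with 41.95, 49.8, 35.4, 44.9 and 41.4 FPKM in Stra8-high cells against 20.1, 22.01, 50.2, 25.4 and 22.9 FPKM in Stra8-low cells. It was higher in 4 of 5 preparations and lower in preparation 3, with a difference of 1.40 ± 0.31 that did not pass (limma adjusted p = 0.067). Of the fits that left out 1 preparation, it was called only without preparation 3, the one that went the other way (1.65 ± 0.28, limma adjusted p = 0.026). Rhox10, a homeobox gene of the X chromosome, had 116 to 176 FPKM in Stra8-high and 38.4 to 112 FPKM in Stra8-low means, which do not overlap, with a difference of 1.82 ± 0.42 (limma adjusted p = 0.074). Sohlh2, the partner of SOHLH1, differed by 1.11 ± 0.30 (limma adjusted p = 0.13) and was higher in 5 of 5 preparations. Ccnd2, a cyclin that rises at differentiation in vivo, differed by 0.48 ± 0.26, and Dnmt3a by -0.60 ± 0.28, neither past the threshold (limma adjusted p = 0.46 and 0.39).

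The list of STRA8 partners and meiotic entry, which also holds repressors of meiotic genes, and the list of meiotic prophase held few calls. Of 13 tested genes of the first list (17 listed) 0 were called, and the median was 0.29, against 0.13 for all genes. In that list 4 genes had an unadjusted p under 0.05, all higher (30.8%, against 10.1% of all genes). They were the Polycomb-related L3mbtl2 (1.33 ± 0.32, limma adjusted p = 0.088), the RNA-binding Rbm46 (1.03 ± 0.25, 0.088), the repressor E2f6 (0.94 ± 0.37, 0.30) and the meiotic Zfp541 (0.29 ± 0.14, 0.39). L3mbtl2 and E2f6 belong to a repressor complex that keeps meiotic genes silent in other cells. Meioc, listed under its older symbol Gm1564, a partner of YTHDC2 in the meiotic programme, averaged 2.35 ± 2.82 FPKM in Stra8-high and 3.23 ± 2.98 FPKM in Stra8-low cells (SD, n = 5) and differed by 0.01 ± 0.24 (limma adjusted p = 0.99). In the meiotic prophase list, 43 of 49 genes were tested, 1 was called, Rec8, and 4 had an unadjusted p under 0.05 (9.3%, against 10.1% of all genes), with a median of 0.15. The next by p was Rec114, listed as 2410076I21Rik, which acts in DNA break formation, with 103, 112, 85.7, 119 and 116 FPKM in Stra8-high cells against 71.9, 106, 88.6, 88.6 and 55.1 FPKM in Stra8-low cells (1.07 ± 0.28, limma adjusted p = 0.11). The synaptonemal complex gene Sycp3 differed by 0.25 and the recombinase Dmc1 by 0.06. The medians of the meiotic list were -0.01 and -0.02 with the residual and covariate corrections for detected genes. Those of the first list were 0.17 and 0.13, with 2 and 1 of its 13 genes at an unadjusted p under 0.05, all higher (limma). The median of all genes was 0.01 with either correction.

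The remaining genes higher in Stra8-high cells by the naming rule belong to no shared pathway of the lists. Crip2, a small LIM-domain protein, averaged 79.5, 57.2, 44.6, 46.1 and 57.6 FPKM in Stra8-high cells, against 31.8, 43.7, 0.45, 28.3 and 15.8 FPKM in Stra8-low cells, without overlap (1.84 ± 0.34, limma adjusted p = 0.025). Siva1, which encodes an apoptosis-linked protein, had 616, 467, 527, 605 and 513 FPKM in Stra8-high cells, against 430, 309, 390, 466 and 347 FPKM in Stra8-low cells, again without overlap (0.66 ± 0.13, limma adjusted p = 0.030). Chrdl1, an antagonist of BMP signals, had Stra8-high means of 5.41 to 12.2 FPKM and Stra8-low means of 0.03 to 4.23 FPKM (1.19 ± 0.23, adjusted p = 0.030). Ss18l1, a subunit of a neuronal chromatin remodelling complex, had 5.05 to 12.2 FPKM in Stra8-high and 0.00 to 1.26 FPKM in Stra8-low means (1.22 ± 0.22, adjusted p = 0.022). Tmem126a and Tmem126b, adjacent genes for assembly factors of respiratory complex I, differed by 1.197 ± 0.21 and 1.503 ± 0.31 (limma adjusted p = 0.020 and 0.046). Gt(ROSA)26Sor, the noncoding Rosa26 transcript, differed by 1.60 ± 0.28 (adjusted p = 0.020), and Eri2, an exonuclease gene, by 1.34 ± 0.27 (adjusted p = 0.041). Exons of Gt(ROSA)26Sor overlap Thumpd3 on the opposite strand and those of Eri2 overlap Acsm3 and Rexo5, so these values are uncertain where strand was not used. Outside the rule, and chosen after their values were seen, the other genes called higher were 1810013D10Rik, Ppdpf, Sssca1, Mcat and Glipr2 (1.03 to 1.40, limma adjusted p = 0.046 to 0.048). Exons of Mcat overlap Tspo on the opposite strand.

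Sdc4 had the smallest p of all genes. It encodes syndecan-4, a cell surface heparan sulfate proteoglycan, and was abundant in all cells, with 1225, 1397, 1119, 1857 and 1369 FPKM in Stra8-high cells against 1632, 2014, 2030, 3111 and 2066 FPKM in Stra8-low cells. It was lower in each preparation, by 0.38 to 0.92, with a fitted difference of -0.77 ± 0.10 (limma adjusted p = 0.0006). With the covariate for detected genes it was -0.57 ± 0.14 (adjusted p = 0.45).

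Of the genes associated with stem cells, 23 of 31 were tested. In Stra8-high cells 3 were called lower and 0 higher, 9 (39.1%, against 2.3% of all genes) had an unadjusted p under 0.05 on the lower side and 1 on the higher side, and the median was -0.35. The same 3 genes, Egr2, Dusp6 and Lhx1, were the calls of the GDNF or FGF response list, of which 21 of 27 were tested, 9 (42.9%) had an unadjusted p under 0.05 on the lower side and 0 on the higher, and the median was -0.26. The lists share members and were chosen with earlier results of these data known, so the counts are not separate evidence. Egr2, an early growth response factor, averaged 13.4, 4.40, 1.83, 5.26 and 3.03 FPKM in Stra8-high cells, against 43.9, 30.2, 24.1, 14.3 and 13.9 FPKM in Stra8-low cells (-1.43 ± 0.28, limma adjusted p = 0.030). Dusp6, a phosphatase that switches off ERK, had 43.8, 44.01, 20.8, 27.8 and 21.9 FPKM in Stra8-high cells, against 50.1, 86.7, 99.0, 76.3 and 72.99 FPKM in Stra8-low cells (-1.45 ± 0.29, limma adjusted p = 0.041). Lhx1, a LIM homeobox factor induced by GDNF, had 3.81, 0.93, 0.00, 3.76 and 0.47 FPKM in Stra8-high cells, against 9.63, 7.96, 7.47, 6.82 and 11.99 FPKM in Stra8-low cells (-1.03 ± 0.21, limma adjusted p = 0.041). The preparation means of the 3 did not overlap between the groups, with every Stra8-high mean the lower (0.354% of all genes). A mean of 15.8% of Stra8-high but 44.2% of Stra8-low cells had Lhx1 at FPKM of at least 1.

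Other stem cell genes did not pass. The AKT coactivator Tcl1 differed by -1.33, the GDNF receptor Ret by -0.87, and the GDNF-induced factors Bcl6b and Etv5 by -0.84 and -0.80 (limma adjusted p = 0.15 to 0.33). Utf1, of the same stem cell list, went the other way, by 0.64 (limma adjusted p = 0.39). In the stem cell list 7 genes were above 0 and 16 below, and in the GDNF or FGF response list 5 and 16. Id4 itself averaged 5.92 ± 3.44 FPKM in Stra8-high and 11.3 ± 9.82 FPKM in Stra8-low cells (SD, n = 5; -0.74 ± 0.29, limma adjusted p = 0.30) and was lower in 3 of 5 preparations. Gfra1, the GDNF co-receptor, averaged 46.8 ± 21.4 FPKM in Stra8-high and 44.7 ± 16.5 FPKM in Stra8-low cells (SD, n = 5) and differed by -0.06 ± 0.29 (limma adjusted p = 0.96). Nanos2 differed by -0.50 ± 0.21, Zbtb16 by -0.17 ± 0.29 and the progenitor gene Neurog3 by 0.11 ± 0.21 (limma adjusted p = 0.35, 0.85 and 0.87). The progenitor list had 11 tested genes, a median of 0.03 and 0 calls in limma (1 at an unadjusted p under 0.05, Sall4). Of 16 immediate early and dissociation genes 0 were called in limma. Their median was -0.17, 13 were below 0 (81.2%, against 32.5% of all genes) and 5 had an unadjusted p under 0.05 on the lower side (31.2%, against 2.3%). Egr1, which belongs to both lists, averaged 70.8 ± 23.7 FPKM in Stra8-high and 116 ± 31.8 FPKM in Stra8-low cells (SD, n = 5; -1.14 ± 0.25, limma adjusted p = 0.064), and the heat shock gene Dnajb1 differed by -0.88 ± 0.30 (limma adjusted p = 0.23). The part of the dissociation response in the lower calls was not tested.

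**Figure D4:**
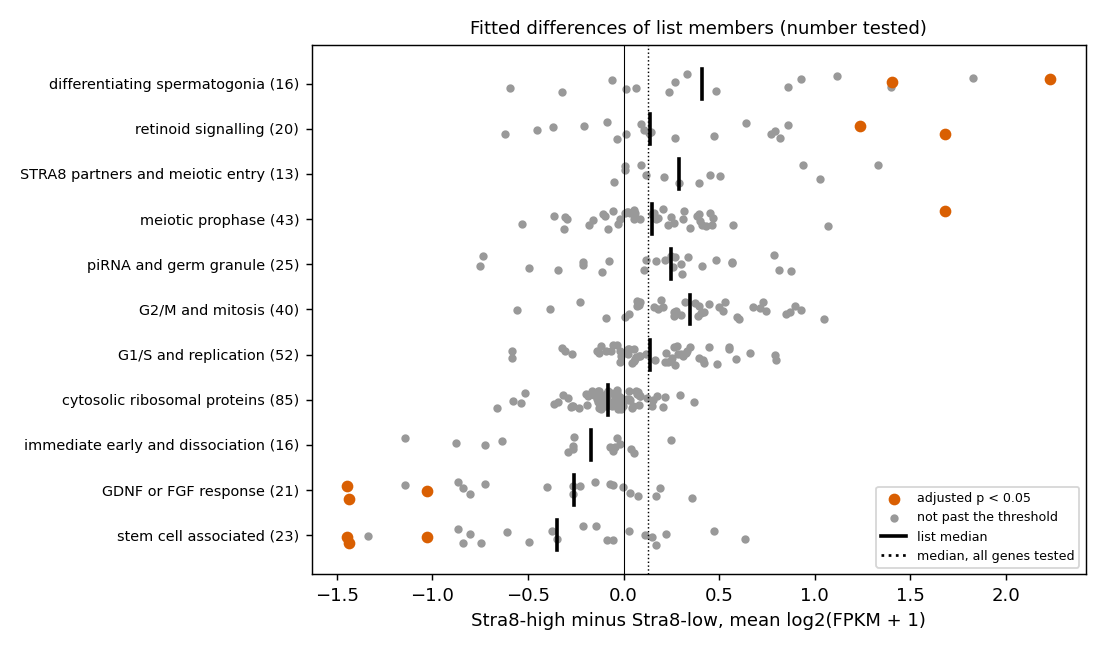
Fitted differences, Stra8-high minus Stra8-low in mean log2(FPKM + 1), of the members of 11 gene lists (1 point per gene, number tested in brackets), with the median of each list (bar) and of all genes (dotted line, 0.13). Differentiating genes have a median of 0.41, and stem cell and GDNF or FGF genes of -0.35 and -0.26.

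The other genes lower in Stra8-high cells were Cst3, Ell3, Capg, Pmaip1 and Tagln2. Cst3, which encodes the protease inhibitor cystatin C, averaged 593, 409, 415, 575 and 445 FPKM in Stra8-high cells, against 806, 727, 610, 943 and 982 FPKM in Stra8-low cells, without overlap (-0.79 ± 0.14, limma adjusted p = 0.020). Tagln2 and Capg both encode actin-binding proteins. Tagln2 had 91.6 to 160 FPKM in Stra8-high means and 195 to 295 FPKM in Stra8-low means (-1.15 ± 0.24, adjusted p = 0.048). Capg had 39.9 to 82.5 FPKM in Stra8-high means and 67.7 to 153 FPKM in Stra8-low means (-1.42 ± 0.29, adjusted p = 0.041). Pmaip1, which encodes the pro-apoptotic protein NOXA, differed by -1.32 ± 0.27 (adjusted p = 0.046). Ell3, a transcription elongation factor gene, differed by -1.64 ± 0.32 (adjusted p = 0.030), but shares exonic bases with Serinc4 on the same strand. Sat1 and Enc1 fall outside the naming rule, because preparation 1 went the other way, and were chosen after their values were seen. Sat1, an enzyme that acetylates spermidine and spermine, had 37.6, 30.9, 26.4, 32.3 and 22.1 FPKM in Stra8-high cells against 35.01, 112, 128, 112 and 97.5 FPKM in Stra8-low cells (-2.35 ± 0.33, limma adjusted p = 0.0024). Preparation 1, the one with no Stra8-low cell at 0, differed by 0.11 and the other preparations by -1.78 to -3.19. Enc1, an actin-binding BTB-kelch protein, differed by -0.80 ± 0.17 (limma adjusted p = 0.048).

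No cell cycle gene of the lists was called. Of 40 G2/M and mitosis genes, 36 were above 0 (90%, against 67.5% of all genes) and 12 (30%, against 10.1% of all genes) had an unadjusted p under 0.05, all higher, with a median of 0.35 and 0 called in limma. They included the ubiquitin-conjugating Ube2c (0.85 ± 0.20, limma adjusted p = 0.082), Ccnb1 (0.68 ± 0.20, 0.18) and Ccna2 (0.93 ± 0.27, 0.17). When genes were taken as residuals on detected genes the median of this list was -0.00, with 2 higher and 2 lower at an unadjusted p under 0.05. The covariate correction instead left a median of 0.28, and 30 of the 40 genes stayed above 0. Only 1 of the 40 then had an unadjusted p under 0.05 (limma), on the higher side. All genes had a median of 0.01 with either correction, so the 2 corrections differ for this list. The 52 G1/S and replication genes had a median of 0.14, 0 calls and 5 genes at an unadjusted p under 0.05 on the higher side and 1 on the lower (limma). The piRNA and germ granule list had a median of 0.25 over 25 genes, with 0 called and 5 higher and 2 lower at an unadjusted p under 0.05 (limma). Its median was -0.02 for residuals on detected genes and 0.12 with detected genes as covariate. In the list of KIT and PI3K-mTOR signalling 1 of 27 tested genes was called, Kit, with a median of 0.01, 4 higher and 2 lower at an unadjusted p under 0.05. Glycolysis genes had a median of -0.05 over 18 and BMP and ID genes of -0.01 over 12, with 0 called and, on each side, 1 gene at an unadjusted p under 0.05 in both lists (limma). The DNA methylation list had a median of 0.27 over 11 genes, with 0 called and Dnmt3b and Dnmt3a at an unadjusted p under 0.05 in opposite directions (limma). Nuclear respiratory chain genes had a median of 0.03 over 86 with 0 called (5 higher and 1 lower at an unadjusted p under 0.05 in limma). Of 85 cytosolic ribosomal protein genes 63 were below 0 (74.1%, against 32.5% of all genes) with a median of -0.08, which turned to 0.03 when cells were scaled to a common 75th percentile, and 0 were called (1 at an unadjusted p under 0.05 in limma, Rps13).

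In the fitted means of log2(FPKM + 1) the middle tercile lay between the high and low terciles for all 28 called genes, at a median of 62.8% of the way from low to high. In mean FPKM it lay between them for 25, and outside for Chrdl1, Ell3 and Tmem126a. The 28 were chosen for their difference between high and low in the same fit. A middle value between is likely from that choice alone, and the share over all genes is not given here. The 28 genes were also compared in EGFP-bright (Q1 and Q2) and EGFP-dim cells (Q3 and Q4) separately, a comparison chosen after seeing the data that splits the same cells, with as few as 3 cells in a mean. All 28 kept their sign on both sides. They were called on the pooled difference of these same cells, so equal signs were favoured by that choice and are not a replication. Kit differed by 2.33 in bright and 2.13 in dim cells, and Egr2 by -1.53 and -1.33. The test of the difference between bright and dim cells called 0 of 10451 genes in limma (494 at an unadjusted p under 0.05, 4.73%). Among the called genes Siva1 was furthest apart by p, at 1.14 in bright and 0.15 in dim cells (unadjusted p = 0.0022, limma adjusted p = 1.00).

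**Figure D5:**
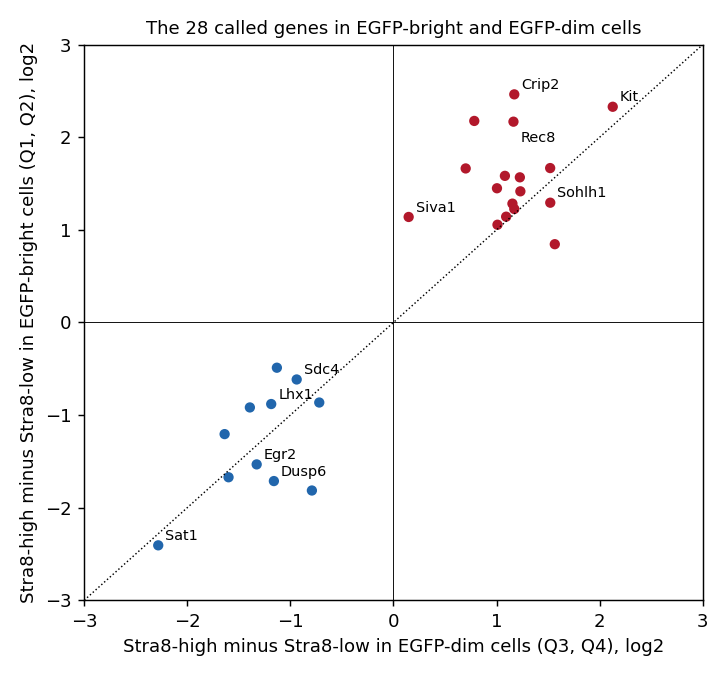
Stra8-high minus Stra8-low differences in mean log2(FPKM + 1) of the 28 called genes in EGFP-bright cells (vertical) against EGFP-dim cells (horizontal), with the line of equal differences. All points lie in the quadrants of equal sign, which is favoured because the genes were called on the same cells, and Siva1 lies near 0 in dim cells.

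Leaving out a preparation changed the calls. With preparations 1 to 5 left out in turn, 4, 0, 9, 4 and 2 genes were called higher and 2, 2, 7, 4 and 2 lower (limma; without preparation 2, 854 were higher at an unadjusted p under 0.05). Sdc4 was called in all 5 of these fits. Kit was called in 4, and without preparation 2 it differed by 2.10 ± 0.40 (limma adjusted p = 0.068). Rec8 and Sat1 were called in 3, and lost the call without preparation 2 (1.70 and -2.19, both limma adjusted p = 0.055) and without preparation 5 (1.61 and -2.01, limma adjusted p = 0.077 and 0.073). Crip2 and Gt(ROSA)26Sor were called in 2 fits, 11 genes in 1 and 11 in 0, among them Egr2 and Dusp6. Sohlh1 was called in the fit without preparation 5 and in no other of these, and Lhx1 likewise without preparation 4. Over the 5 fits the limma adjusted p of the 28 genes ran from 0.0003 to 0.31, and none changed sign. The signs could also be read in the preparation that a fit had not used, a check chosen after seeing the data. Over the 5 fits there were 36 calls, some of them the same gene, and 30 had the same sign in the preparation left out. By preparation left out, this was 4 of 6, 1 of 2, 13 of 16, 8 of 8 and 4 of 4. The same share over all genes is not given here, and 67.5% of all genes were above 0 in the main fit.

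In GENCODE M21 on GRCm38, Stra8 lies on chromosome 6 at 34920163 to 34939344, Kit on chromosome 5 at 75574916 to 75656722, Rec8 on chromosome 14 at 55618037 to 55625395 and Sohlh1 on chromosome 2 at 25842995 to 25847248. Sdc4 lies on chromosome 2 at 164424247 to 164443887, Egr2 on chromosome 10 at 67535475 to 67542188, Dusp6 on chromosome 10 at 99263231 to 99267489, Lhx1 on chromosome 11 at 84518284 to 84525535 and Sat1 on chromosome X at 155213132 to 155216449. All are protein coding, and the values are for whole genes. The GENCODE bounds of Stra8 begin upstream of the start site that sets its promoter window. Exons on the opposite strand overlap those of Id4, Gfra1, Neurog3 and Nanos2, whose values are uncertain where strand was not used.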

How the data were processed

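Single-cell RNA-seq libraries were made with SMARTer cDNA synthesis on the Fluidigm C1, per the labels' protocols. The authors deposited FPKM per gene and cell; per the submitters' processing notes the build was mm10 (GRCm38) and the tools were TopHat, Cufflinks, Picard and FastQC, with versions not given in the sources used here. The unit was read from the quantifier and the values. The matrix holds 23354 genes, 6247 of them at 0 in every cell. Near-identical or overlapping genes may share reads.

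The number in each sample title was taken as the preparation, the unit of replication. The bottom and top tercile of a preparation are of equal size, rounded down. A gene was tested if 10% of cells or more had it at an FPKM of 1 or more, which left 10451 without Stra8. Means over cells of log2(FPKM + 1) for 5 preparations and 3 terciles (15 means) entered limma 3.58.1 (trend; R 4.3.3), weighted by cell number, with preparation as block, which left 8 residual degrees of freedom. P-values were two-sided, adjusted by Benjamini-Hochberg over all genes. The terciles of a preparation come from the same suspension: over 15 same-preparation pairs, deviations from the tercile means correlated across genes at a median of 0.247 and a lowest of 0.116, against -0.113 between preparations. The highest correlation between cells was 0.692, so none were duplicates. Single values were tested by exact permutation of signs over preparations. Depth was estimated from 2110 genes with transcripts of at least 1500 bases; in 265 of 278 cells estimates from 2 sets of these genes lay within 1.25-fold. The fit was tested on simulated data.

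Named genes were the 12 of smallest p in each direction past the threshold with the same sign in 5 preparations, always-named genes such as Id4 and Meioc, and list members, of which those with an unadjusted p under 0.05 (up to 3 for most lists), Rara and a few values for context are given; some genes are not reported here. The members and lists were chosen with earlier results of these data known. Symbols matched GENCODE M21 for 21695 genes. Promoters are RefSeq's; the tables held 11 of the 17 and 9 of the 11 called genes. Alternatives covered the pseudocount, filter, scaling, block, weights, covariates, grouping and each preparation left out.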

Additional observations from a re-analysis of the deposited data

Results flagged for a closer look

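In 7 cases among the 74 named genes, the difference in 1 preparation lay far from those of the other 4. The nominal level of the rule is about 1 of 20 genes, and its rate by chance in these data was not measured. Preparation 1 stood apart for 4 genes. There, Stra8-high minus Stra8-low in mean log2(FPKM + 1), Enc1 differed by 0.1036 against -0.80 to -1.09 in the others, Ier3 by 0.06442 against -0.62 to -0.89, Rptor by 0.03508 against -0.52 to -0.68, and the lactate transporter Slc16a1 by 1.53 against 0.43 to 0.73. Preparation 1 is the smallest, with 8 cells in each tercile, and the only one with no Stra8-low cell at 0. Preparation 3 stood apart for 3 genes, with differences of 2.491 for Ccna2 (0.56 to 0.97 in the others), 1.595 for Sall4 (0.22 to 0.46) and 1.343 for Gpat2 (0.60 to 0.81). It had the fewest detected genes, 4638 per Stra8-high and 4019 per Stra8-low cell, and the part of this in the 3 differences was not tested.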

How the results depend on the processing

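Counts of called genes, higher and lower in Stra8-high cells, were 17 and 11. They were 4 and 3 with the cells at 0 as the low group, 3 and 3 centred on the EGFP quartile, 1 and 0 with detected genes as a covariate, 3 and 13 for residuals on detected genes, 2 and 3 between upper and lower 50% of cells, 6 and 4 with the high and low means alone, 4 and 8 for the logged mean, 6 and 2 without weights and 10 and 3 with a pseudocount of 0.1. They were 0 and 0 in limma without a filter (1293 and 359 at an unadjusted p under 0.05), for the share of cells detected (1156 and 158) and without the replicate block (438 and 104). Without 1 preparation they ranged from 0 to 9 and from 2 to 7. At a common 75th percentile (19 and 8), with a filter at 25% of cells (15 and 12) and with ties reversed (17 and 11) the counts stayed within 1.5 times. The fit with the cells at 0 as the low group also lacked preparation 1, which had no such cell. Its low group had 3 cells in preparation 3, so its counts differ by more than the grouping.

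The difference in EGFP quartile (0.01) was -0.1018 with the cells at 0 as the low group and ran from -0.1159 to 0.24 without 1 preparation, none past the threshold. Some genes that were not called changed sign. Gfra1 (-0.06) was 0.01066 centred on the EGFP quartile, 0.002146 at a common 75th percentile, 0.0561 without weights and, without 1 preparation, -0.2106 to 0.3393. Neurog3 (0.11) was -0.4376 with detected genes as a covariate, -0.05888 between upper and lower 50%, -0.1085 without weights and, without 1 preparation, -0.0541 to 0.1341. Zbtb16 (-0.17) was -0.3856 to 0.1793 without 1 preparation and 4.396 percentage points for the share of cells detected. Meioc, or Gm1564 (0.01), was -0.1699 with the cells at 0, -0.05992 centred, -0.5213 for the logged mean, -0.1296 for residuals, and -0.1051 to 0.2739 without 1 preparation. Rara (0.14) was -0.114 with the cells at 0 and -0.01063 between upper and lower 50%. For the logged mean Ccnd2 was -0.0936 and Syce3 -0.1535. The causes were not tested. Of the 28 called genes none changed sign under these settings. Depth limits low genes: an exact 0 can be a missed molecule.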
